A study of Mus musculus with 2 samples.

Results

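Mir191 and Mir425 are neighbouring microRNA genes on chromosome 9, known as a pair made from a single primary transcript. They were described here as 2 of 2202 annotated miRNA genes counted in mouse gastrocnemius, a calf muscle of mostly fast fibres. The members were selected by their gene identifiers, which GENCODE M21 maps to the symbols Mir191 (ENSMUSG00000105497.1) and Mir425 (ENSMUSG00000065579.1). Read counts of these libraries were in view when the pair was chosen, so its levels, its level ratio and its difference between the libraries are given as descriptions with no test.

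The data are 2 small RNA libraries, each labelled as gastrocnemius of a male of strain B6CASTF1/J at 25 days. This strain is an F1 cross of an inbred laboratory strain with the wild-derived CAST strain. There is 1 group, untreated as far as the labels say, with 1 library labelled as biological replicate 1 and 1 as biological replicate 2. The sample notes number the animals separately but list an identical donor identifier, so any spread given here may be technical. The gene rows summed to 1491341 counts for replicate 1 and to 2028332 for replicate 2.

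A microRNA begins as a hairpin within a longer RNA. The enzyme Drosha cuts the hairpin out in the nucleus, Dicer removes its loop in the cytoplasm, and an arm of the remaining duplex is loaded into an Argonaute protein. Bases 2 to 8 of the loaded strand, the seed, pair with sites in messenger RNAs and lower their output. Hairpins in a shared primary transcript are made together but can end at different levels, since cutting, loading and decay act on each of them. MiR-191 is present in many tissues and is often taken as a reference in miRNA assays, and the pair has been studied in tumours of hormone-dependent tissue.

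The mature arms are shown because their seeds set which messenger RNAs each member can pair with. They were copied from RefSeq (GRCm38.p6) for both members and are written 5′ to 3′, with the seed in capitals.
mmu-miR-191-5p: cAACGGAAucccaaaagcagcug
mmu-miR-191-3p: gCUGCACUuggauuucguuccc
mmu-miR-425-5p: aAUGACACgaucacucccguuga
mmu-miR-425-3p: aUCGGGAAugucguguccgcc

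No seed was shared between the members. Among 1738 mature sequences in the RefSeq table, no other sequence had the seed of miR-191-5p, miR-191-3p or miR-425-3p. The seed of miR-425-5p occurred in 1 other sequence, miR-489-3p. Its gene Mir489 had 1 count in replicate 1 and 0 in replicate 2, which there leaves room for a level of 1.48 CPM (counts per 1000000 gene counts). Of the genes with this seed, Mir425 thus held nearly all counts in this muscle.

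The hairpins show where the arms lie, and their mature arms are in capitals, again from RefSeq on GRCm38.p6, plus strand. Mir191 lies at chr9:108568319-108568392 and Mir425 at chr9:108568777-108568861.
Mir191 hairpin: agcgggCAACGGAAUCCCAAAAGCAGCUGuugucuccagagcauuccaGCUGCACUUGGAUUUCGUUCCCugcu
Mir425 hairpin: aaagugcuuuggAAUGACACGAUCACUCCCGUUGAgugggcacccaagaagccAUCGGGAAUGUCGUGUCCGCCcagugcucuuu

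The Mir191 hairpin has 74 bases and the Mir425 hairpin 85, with GC contents of 54.1% in each. A predicted fold of either hairpin held 28 base pairs, with a minimum free energy of -35.0 kcal/mol for Mir191 and -31.7 kcal/mol for Mir425. The longest stretch the hairpins share is 5 bases. Neither shares a 20-base stretch with an annotated miRNA gene at another locus, whereas 1087 of the 2202 genes do. This bears on the counts, because multimapping reads, 69.8% of the reads of replicate 1 and 71.8% of those of replicate 2, are in no gene row. Copies outside annotated miRNA genes were not analysed here. A gene row sums all reads placed in the hairpin, so the arms of a member cannot be told apart in these counts.

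The hairpins are 384 bases apart and together span 543 bases. In GENCODE M21 both lie in the lincRNA gene 4833445I07Rik (mm10 chromosome 9, 108567533 to 108569174, plus strand). Its longer transcript is a single exon that holds both hairpins. In its shorter transcript, which ends at 108568774, Mir191 is intronic and Mir425 starts after a gap of 2 bases. The protein-coding gene Dalrd3, named for an anticodon-binding domain of transfer RNA synthetases and known as the host of the pair, was annotated differently in the reference sets. RefSeq starts Dalrd3 at 108567484, 835 bases before Mir191, so the pair lies inside the gene. GENCODE M21 starts it at 108569886, 2402 bases later, so both hairpins lie upstream and Mir425 ends 1024 bases before it. On the other side Ndufaf3, a complex I assembly factor on the minus strand, lies 884 bases before Mir191. Neither the lincRNA nor the Dalrd3 transcript was measured in these libraries, so joint transcription of the pair, given above as known, was not measured here.

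**Figure D1:**
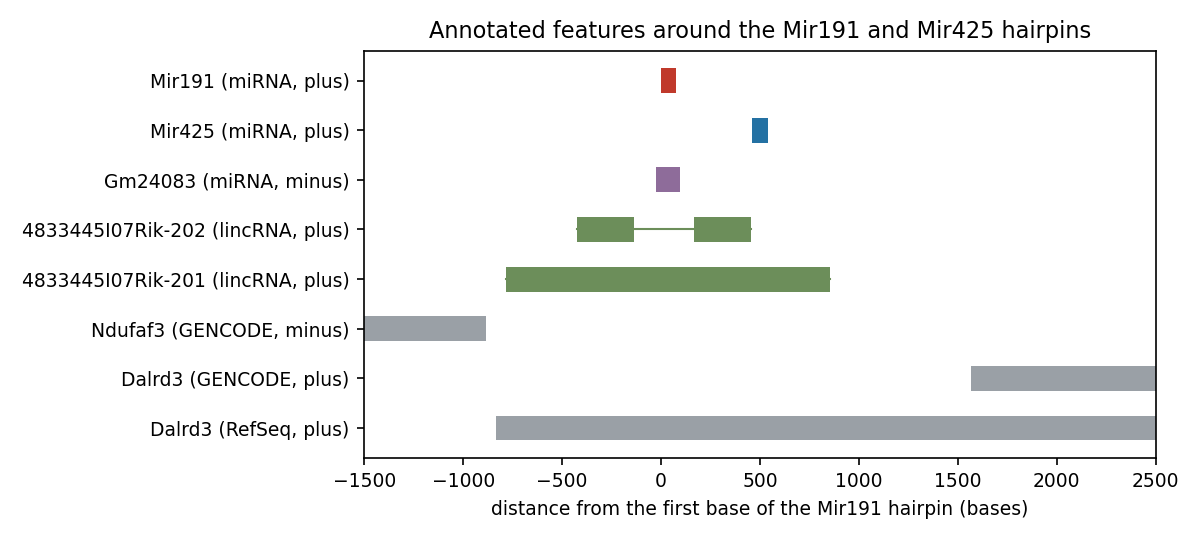
Annotated features around the pair, plotted by distance in bases from the start of the Mir191 hairpin, with the strand of each feature in its label; thick bars are genes or exons and the thin line is an intron. Both hairpins lie in the single exon of 4833445I07Rik-201 and in Dalrd3 as RefSeq draws it, but upstream of Dalrd3 as GENCODE draws it, and Gm24083 covers Mir191 on the other strand.

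Both members were well detected in the muscle, Mir191 at a much higher level than Mir425. Mir191 had 10370 counts in replicate 1 (exact Poisson 95% interval 10171 to 10571) and 11105 in replicate 2 (10899 to 11314). Mir425 had 384 counts in replicate 1 (347 to 424) and 542 in replicate 2 (497 to 590). These and all later intervals and limits describe the counting error of reads alone. Reads copied by PCR do not stand for separate molecules, so the intervals may be too narrow for molecules.

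Scaled to the library, Mir191 stood at 6953 CPM in replicate 1 and 5475 CPM in replicate 2, a mean of 6214 ± 1045 CPM (SD, n = 2). Mir425 stood at 257 CPM in replicate 1 and 267 CPM in replicate 2, a mean of 262 ± 6.88 CPM (SD, n = 2). Mir191 was therefore the member with the higher counts in both libraries. Whether both sequences were captured alike was not tested, so the counts need not give the ratio of their RNAs. As a share of gene counts the pair held 0.721% in replicate 1 and 0.574% in replicate 2. Of all reads, Mir191 held 0.138% in replicate 1 and 0.113% in replicate 2.

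By mean CPM, Mir191 was at rank 27 and Mir425 at rank 112 of the 2202 genes, 1632 of which had no counts. Mir425 thus lay above the median of 106 CPM over the 313 genes that reached 10 counts in sum and below that of 419 CPM over the 179 deeper ones. Mir487b, of the imprinted Dlk1-Dio3 region, was just above Mir191 with 7035 ± 231 CPM. Mir196b, of the Hoxa cluster, was just below it with 6093 ± 1454 CPM. Each differs from Mir191 by less than the SD of Mir191, so these places in the order are not separated beyond that spread. Around Mir425 the order was as close, with Mir539 above at 264 ± 27.7 CPM and Mir300 below at 257 ± 50.1 CPM (SD, n = 2 for each).

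**Figure D2:**
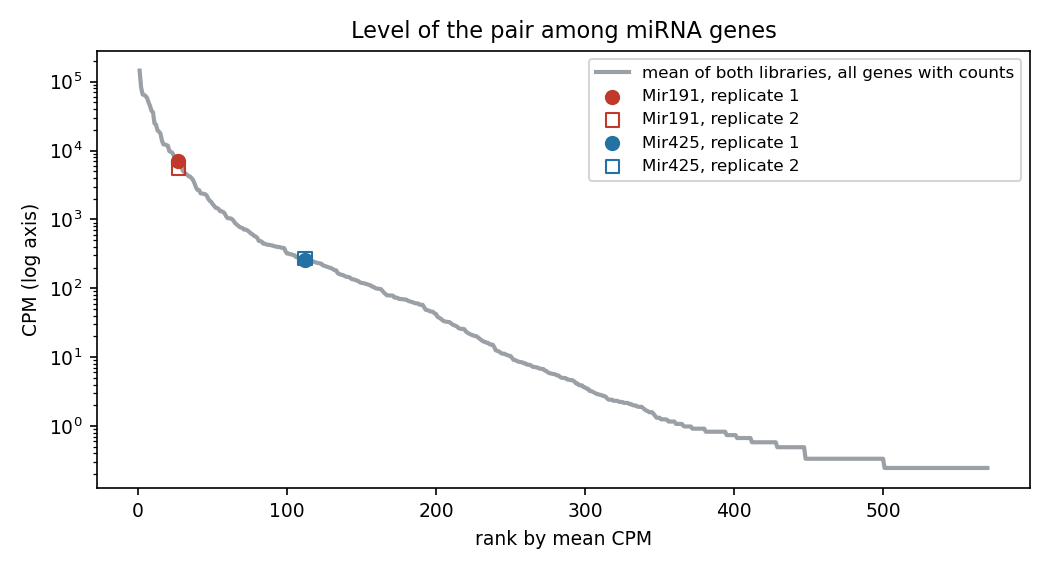
CPM on a log axis against rank by mean CPM for all miRNA genes with counts (grey line, mean of both libraries), with the values of Mir191 and Mir425 in each library as filled circles (replicate 1) and open squares (replicate 2). Mir191 lies at rank 27, between 5475 and 6953 CPM, and Mir425 at rank 112, between 257 and 267 CPM.

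The genes nearest to each member over the 2 libraries were found by Euclidean distance of log2(CPM + 1), among the 179 genes that reached 100 counts in both libraries. For Mir191 they were Mir196b on chromosome 6 (distance 0.12), Mir151 on chromosome 15 (0.25) and Mir487b on chromosome 12 (0.40). For Mir425 they were Mir539 on chromosome 12 (distance 0.11), Mir221 on the X chromosome (0.13) and Mir494 on chromosome 12 (0.16). None of the 6 lies on chromosome 9, but the share of the 179 genes there was not counted, so this is no result about the pair. With 2 libraries this likeness is one of level and of a single ratio.

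The nearest annotated miRNA genes on chromosome 9 gave no signal. Gm47303, 465 kb before the pair, and Gm26298, 84.7 kb after it, had 0 counts in both libraries. The nearest genes to reach 100 counts in both libraries were Mirlet7g, 2389 kb before the pair, with 92979 counts in replicate 1 and 109465 in replicate 2, and Mir128-2, 3550 kb after it, with 394 and 464 counts. Along several megabases the pair was thus the only annotated miRNA locus at that depth.

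The count of Mir191 depended on the use of strand. An annotated miRNA gene on the opposite strand, Gm24083 (chromosome 9, 108568295 to 108568414, minus strand), covers the whole Mir191 hairpin and reaches 24 and 22 bases beyond its ends. Its annotated sequence contains the reverse complement of the Mir191 hairpin. The deposited columns have no header, and their strand was read from their values. Of 158 genes with no opposite-strand partner that reached 100 counts in both libraries, 152 had equal counts in the column taken as that of the strand of the gene and in the column taken as without strand. In the column taken as the strand of the gene, Mir191 had 10370 and 11105 counts and Gm24083 had 0 in both libraries. In the column taken as the opposite strand the values were exchanged, with 0 counts for Mir191 and 10370 and 11105 for Gm24083. In the column taken as without strand both genes had 0 counts in both libraries, and its summary row for ambiguous reads held 377691 reads in replicate 1 and 511221 in replicate 2.

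With the columns read this way, the counts at this place belong to the strand of Mir191. The 0 counts on the opposite strand allow up to 0.0289% of the Mir191 count in replicate 1 and 0.0270% in replicate 2. For Gm24083 itself the limits are 2.01 CPM (replicate 1) and 1.48 CPM (replicate 2). Mir425 has no such partner, and its counts of 384 and 542 were equal in the column for its strand and in that without strand, with 0 on the opposite strand.

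Loss of the count without strand was shared by other genes with an opposite-strand partner. Of 64 such miRNA genes, 21 reached 100 counts in both libraries, and 20 of these were at 0 without strand in both libraries. The exception was Mir126a, the endothelial miRNA gene of Egfl7, with 0 and 1 counts. By mean CPM Mir191 was in place 4 of the 21, after Mir378a, Mir126a and Mir30e. Its counts equal 2.75% of the reads marked ambiguous without strand in replicate 1 and 2.17% in replicate 2.

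**Figure D3:**
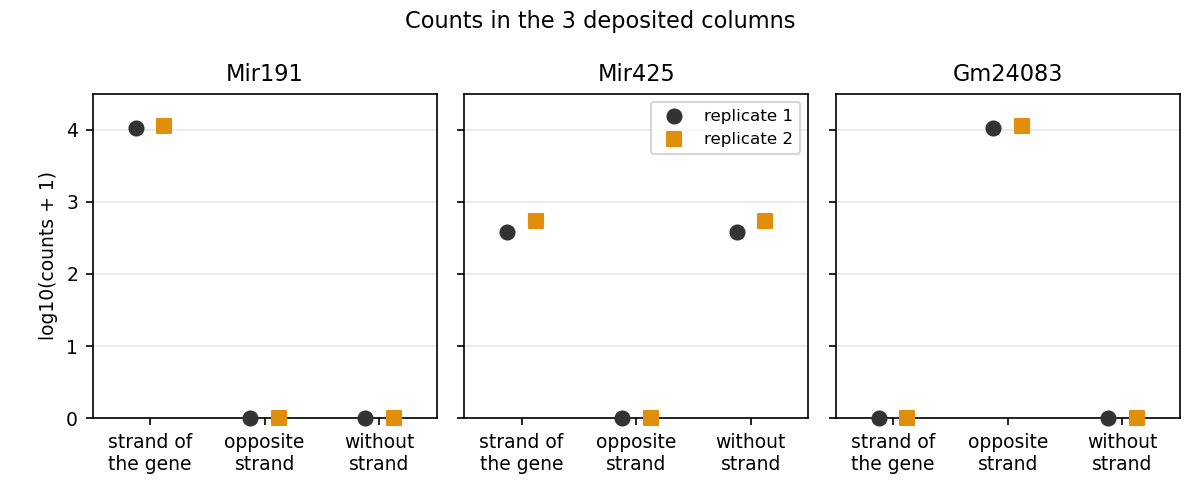
Counts, as log10(counts + 1), in the 3 deposited columns for Mir191, Mir425 and the opposite-strand gene Gm24083, with circles for replicate 1 and squares for replicate 2. Mir191 has counts only in the column for its own strand and Gm24083 only in that for the opposite strand, both at 10370 and 11105, while Mir425 keeps 384 and 542 without strand.

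Within the pair, Mir191 exceeded Mir425 by 27.0-fold in replicate 1 (exact 95% interval 24.4 to 30.0) and by 20.5-fold in replicate 2 (18.8 to 22.4). The mean log2 ratio of their counts was 4.56 ± 0.28 (SD, n = 2), and the difference in level is far larger than that spread. Mir425 made up 3.57% of the counts of the pair in replicate 1 and 4.65% in replicate 2. This share does not depend on library size or scaling. The odds of Mir425 against Mir191 were higher in replicate 2 by 0.40 on the log2 scale (exact 95% interval 0.20 to 0.59, counting error only).

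Other neighbouring miRNA genes were set beside the pair as a description. On a single strand and within 10 kb, 57 other adjacent pairs had at least 100 counts of both genes in each library. Of these, 30 lie on chromosome 12, and adjacent pairs of a cluster share a gene, so they are not independent. Their level ratios ranged from 0.09 to 7.38 on the log2 scale, with a median of 2.43, or 5.40-fold. The Mir191 and Mir425 ratio of 4.56, or 23.5-fold, was exceeded by 12 of the 57.

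In 17 of the 57 pairs a gene shares a 20-base stretch with another locus. Among the 40 pairs without, a split chosen after the data were seen, the median was 1.82, or 3.53-fold, and 5 were more unequal than Mir191 and Mir425. Closest in level ratio was Mir188 with Mir532, in the Clcn5 intron cluster, where Mir532 was 22.9-fold higher. Mir487b with Mir539 followed at 26.7-fold and Mir382 with Mir134 at 27.4-fold, both pairs of the Dlk1-Dio3 region. Mir487b shares a stretch with another gene and Mir539 has an opposite-strand partner. Unequal counts of neighbouring genes were therefore common in these libraries, and those of Mir191 and Mir425 lay in the upper part of the range.

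Between the libraries the members stood apart. After TMM scaling, Mir191 was lower in replicate 2 with a log2 ratio of replicate 2 over replicate 1 of -0.33 (exact 95% interval -0.37 to -0.30), or 0.793-fold. Mir425 had a log2 ratio of 0.06 (-0.13 to 0.26), or 1.05-fold, and with upper quartile scaling, which moves all ratios by -0.29, its sign turned to -0.23. The interval of Mir191 lies below 0 and that of Mir425 spans it, with counting error only. These intervals do not measure the difference between the members, and that of Mir425 rests on far fewer counts. Compared directly, the members differed by 0.40 on the log2 scale (0.20 to 0.59, counting error only), and 17 of the 57 other neighbouring pairs differed by more. Whether the libraries come from separate animals is unsettled, so a difference between animals, if there were 2, cannot be told apart from one of library preparation.

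Neither member was over 1.5-fold apart between the libraries (0 of 2), beside 72 of the 313 genes that reached 10 counts over both libraries together (23%). Of these 72, 44 were higher in replicate 2 (14.1% of genes) and 28 lower (8.95%), a split that became 23 and 68 with upper quartile scaling. Under that scaling Mir191, at -0.63 or 0.648-fold, did pass 1.5-fold. Among the 179 genes of 100 counts or more per library, 17 were over 1.5-fold apart (9.5%). In size, the ratio of Mir191 was above that of 119 of these 179 genes and the ratio of Mir425 above that of 32. The median size was 0.23 on the log2 scale, so Mir191 differed by more and Mir425 by less than the middle gene of these 179. For Mir425 this is not resolved, as its interval of -0.13 to 0.26 also holds sizes above that median.

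**Figure D4:**
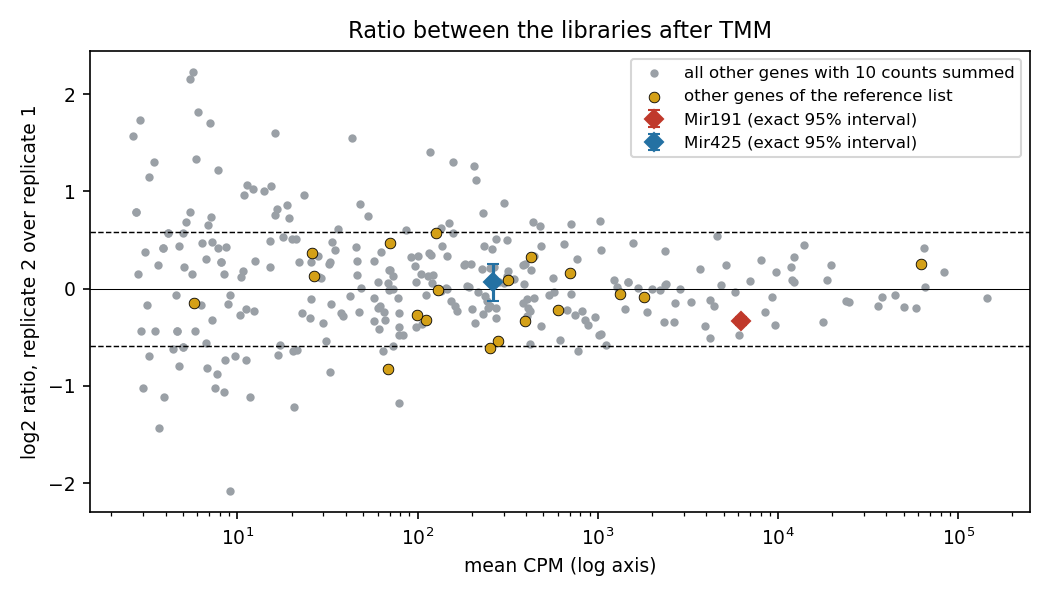
Log2 ratio of replicate 2 over replicate 1 after TMM against mean CPM on a log axis, for genes with at least 10 counts summed, with dashed lines at 1.5-fold in either direction, reference-list genes in yellow and the members as diamonds with exact 95% intervals (for Mir191 narrower than its symbol). Mir191 lies at -0.33 and Mir425 at 0.06, which becomes -0.23 with upper quartile scaling.

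The difference of the members' library ratios was 0.40 on the log2 scale. Among the 57 other neighbouring pairs the median difference was 0.26 and the largest 0.80, and 17 were larger than that of Mir191 and Mir425. The members' ratios had opposite signs, as in 19 of the other 57 pairs, while 38 had the same sign. With upper quartile scaling both members have a negative sign, but their difference is the same. The 3 pairs closest in level ratio differed by 0.31 (Mir188 and Mir532), 0.15 (Mir487b and Mir539) and 0.19 (Mir382 and Mir134).

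**Figure D5:**
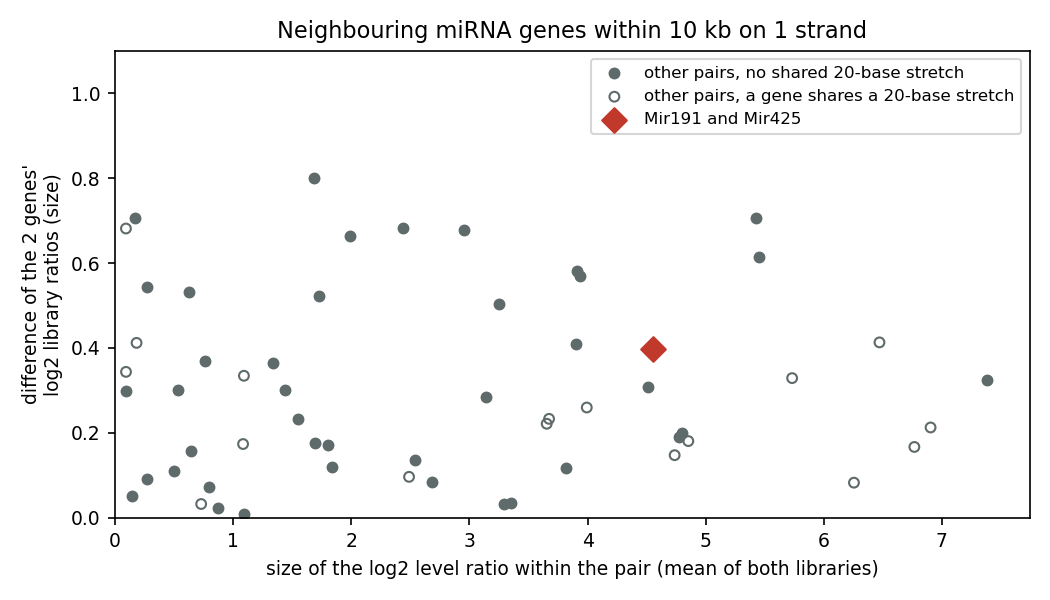
Each point is a pair of adjacent miRNA genes on a single strand within 10 kb with at least 100 counts of both in each library; the horizontal axis is the size of the log2 level ratio (mean of both libraries) and the vertical axis the size of the difference of the genes' log2 library ratios. Mir191 and Mir425 (diamond) lie at 4.56 and 0.40, against medians of 2.43 and 0.26 over the 57 other pairs.

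Both members were placed in a list of 22 miRNA genes often used as references in miRNA assays, of which 21 had at least 10 counts. The list was written from general knowledge with earlier results of these data known, so membership in it is no result. Mir23a was the only other gene of the list above Mir191 in level, with 61898 ± 7397 CPM. The next by level were Mir361 (1805 ± 82.8 CPM), Mir93 (1321 ± 41.2 CPM), Mir320 (701 ± 52.8 CPM), Mir16-1 (603 ± 67.4 CPM) and Mir107 (428 ± 66.1 CPM). Mir191 thus had the highest counts of the list genes with no shared stretch, since Mir23a, like 11 others of the list, shares one. These 12 genes may be undercounted, as multimapping reads are in no gene row. The order of levels in the list holds for these counts only.

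The median size of the library ratio over the 21 genes was 0.27 on the log2 scale, beside 0.30 over all 313 genes tested. This order turned at higher depth, where the 17 list genes that reached 100 counts in both libraries had a median of 0.27 and all 179 such genes 0.23. Past 1.5-fold were 2 of the 21 (9.52%, beside 23% of the 313 genes), or 2 of the 17 (11.8%, beside 9.5% of the 179). They were Mirlet7a-1 at -0.61 and Mir26a-2 at -0.82, named because the count is small; 0 were past it upward. Of the 19 list genes besides the pair, 12 had a smaller ratio than Mir191 and 2 a smaller ratio than Mir425. Log2 ratios were -0.05 for Mir93, -0.08 for Mir361, 0.16 for Mir320, -0.22 for Mir16-1, 0.25 for Mir23a and 0.33 for Mir107. After TMM, Mir425 was thus among the list genes with the smallest library ratios and Mir191 was not. The interval of Mir425, -0.13 to 0.26, ends just short of the list median size of 0.27. It holds the ratio sizes of Mir93, Mir361, Mir320, Mir16-1 and Mir23a, so the place of Mir425 among the list genes is not resolved. Each of these ratios is 0.29 lower with upper quartile scaling, which turns the signs of Mir320 and Mir23a among these 6. The low place of Mir425, then at -0.23, depends on the scaling. Mir320, Mir23a and Mir107 are then smaller in size than Mir425, while Mir93, Mir361 and Mir16-1 are larger. Mir103-1 and Mir103-2, reference genes chosen for mention after their values were seen, had 2 and 1 and 9 and 11 counts and share sequence, so reads of miR-103 that aligned to both loci are not in these rows.

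Markers of muscle and of other cell types were summed per library to check the labelled tissue. The striated muscle genes held 55093 CPM in replicate 1 and 48416 CPM in replicate 2, with counts for all 9, most of them from Mir206. Every Mir133 and Mir1a gene of this list shares a stretch and may be undercounted, whereas Mir206 shares none. The lead of Mir206 over them therefore holds for these counts only. The neuronal genes held 1 count in each library, with 5 of 6 at 0 in both, though all 6 share a stretch and may be undercounted. Mir122 of liver was at 20 counts (replicate 1) and 23 (replicate 2), and the pancreas list at 16 and 15.

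The levels of these lists were also compared between the libraries. The leukocyte list stood at 2665 CPM in replicate 1 and 2294 CPM in replicate 2, with 2 of 4 genes lower in replicate 2, and the striated muscle list was lower in sum with 3 of 9 genes lower and 6 higher. The smooth muscle and pericyte list was higher in replicate 2, at 78690 against 58854 CPM (2 of 2 genes), and the endothelial gene Mir126a stood at 78275 and 87525 CPM. The red blood cell list stood at 174 and 355 CPM (2 of 2 genes higher). After TMM, the log2 ratios of replicate 2 over replicate 1 were -0.21 (leukocyte), -0.18 (striated muscle) and 0.17 (Mir126a). These are smaller in size than the median of 0.23 over the 179 genes of at least 100 counts per library. The smooth muscle and pericyte list, at 0.43, and the red blood cell list, at 1.04, were above that median. The part of any list in the lower level of Mir191 was not tested. In whole tissue, fewer cells of a type and less RNA per cell cannot be told apart.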

How the data were processed

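Small RNA was sequenced from 2 samples of 1 group. The deposited files hold raw read counts per miRNA gene on mm10 with GENCODE M21, per the deposited file notes. Size selection was below 30, per the labels, which name no unit. For aligner, trimming and filters: not given in the sources used here. The files have no header. Their 4 summary rows and 3 count columns were read from the values as unstranded, same-strand and opposite-strand.

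Same-strand counts were used. CPM was computed on the sum of all gene rows, and the summary rows stayed out. Gene counts made up 19.9% and 20.6% of reads. Log2 ratios between the libraries used TMM effective library sizes (edgeR 4.0.16, R 4.3.3), with exact 95% Clopper-Pearson intervals conditional on the summed count (scipy 1.17.1). The intervals were tested on simulated counts with counting error alone, and the pass rule used the known library sizes, not TMM. Their cover of the spread between real libraries was not tested. A count of 0 allows up to 3 counts. With 1 group there was no contrast, and no test was run. Where genes overlap they were taken as 1 locus when 20-base shared stretches were sought. Folds came from RNAfold 2.7.2.

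The members and lists were chosen with earlier results of these data known. Named genes are both members, their neighbours in rank, the 3 nearest in level over both libraries, the nearest miRNA genes on either side, the 3 neighbouring pairs closest in level ratio, up to 6 highest genes of the reference list, the host gene and genes that share a seed. Genes named outside this rule are Gm24083, which overlaps Mir191, those with an opposite-strand partner placed before Mir191, the nearest deep genes Mirlet7g and Mir128-2, marker genes, and those whose naming is explained beside them. Alternatives were another strand column, other library sizes, DESeq2 1.42.0 size factors, total and upper quartile scaling, other count minimums and distances, and each library alone.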

Additional observations from a re-analysis of the deposited data

How the results depend on the processing

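Library size cancels in the level of Mir191 over Mir425, so this ratio could not change with the library size used. With either library left out it was 4.36 to 4.76 on the log2 scale. No such ratio exists without strand, where Mir191 has 0 CPM and Mir425 351 CPM. Levels of Mir191 and Mir425 were 1256 and 53.1 CPM per all reads, 7270 and 307 CPM without the highest gene, and 9191 and 388 CPM on genes with no shared stretch. In that last set their ranks were 22 and 90. With a library left out, levels were 5475 to 6953 and 257 to 267 CPM and ranks 27 to 29 and 112 to 115. The library ratio of Mir191 stayed negative under each scaling, at -0.63 with upper quartile and -0.30 with all reads. That of Mir425 turned to -0.23 with upper quartile, which moved all ratios by -0.29; the cause was not tested. Genes over 1.5-fold apart numbered 281 with at least 1 count and 17 with at least 100 in each library, since other genes are then counted. Of the other neighbouring pairs, 6 of 36 within 1 kb and 5 of 40 with no shared stretch had a larger level ratio, beside 12 of 57. A larger difference of library ratios was found in 11 of 36 pairs within 1 kb and 26 of 76 with at least 10 counts, beside 17 of 57, so these counts follow the number of pairs. At 384 and 542 counts the interval of the Mir425 ratio spans 0. No paired analysis was possible because there is 1 group.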
